A study of Nothobranchius furzeri with 16 samples.

Results

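Brain transcript levels of the killifish strain GRZ were compared with those of the strain MZM-0410 averaged over 3 ages, in Nothobranchius furzeri. All 16 libraries of the series entered the comparison: 4 GRZ brains at 5 weeks post hatching (wph), and 4 MZM-0410 brains each at 5, 12 and 39 wph. One fit with 4 groups gave every gene a log2 fold change of GRZ over the unweighted mean of the 3 MZM-0410 ages, for 18623 tested genes of 26739 in the table. The same fit asked whether a gene differed in one direction from each age taken alone. No genotype change or treatment was labelled in any group, and the fish were fasted and killed at one time of day. GRZ was sampled at 5 wph only. For a gene whose level changes with age in MZM-0410, strain and age therefore cannot be told apart in the comparison with the age mean.

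Nothobranchius furzeri is an annual fish of ephemeral ponds and one of the shortest-lived vertebrates kept in the laboratory. GRZ is a highly inbred laboratory strain with an especially short life, and MZM-0410 is a wild-derived strain that lives longer. As in other teleosts, an ancient genome duplication left many genes with a pair of copies that can diverge in expression. Gene symbols below are those of the human orthologue, a gene identifier is added where a symbol has more than one tested copy, and the functions given are those known from mammals.

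The libraries held 8804276 to 10645432 counts in GRZ and 3931420 to 9451019 counts in MZM-0410, of which 3 of the 4 MZM-0410 libraries at 5 wph had at most 4629564. On the first principal component of log2 CPM (counts scaled to a common library total), which took 33.1% of the variance, the GRZ libraries lay between 25.6 and 29.6 and all MZM-0410 libraries at -1.57 or below. GRZ replicate 4 stood furthest from its own group: its counts differed from those of the other GRZ libraries by 7.65 to 8.27 times the sampling variance, against 3.99 to 6.59 times between the others. Results that rest on this library are given with and without it. Nothing in the labels says whether the 4 libraries of a group share a clutch or a tank, so p-values measure the spread between these samples.

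Against the age mean, 4605 genes (24.7% of those tested) passed an adjusted p of 0.05, with 2584 higher in GRZ (13.9%) and 2021 lower (10.9%). Most of these differences were small: the median absolute log2 fold change of the genes past the threshold was 0.39, and 311 genes (1.67%) were more than 2-fold higher and 258 (1.39%) more than 2-fold lower. The median log2 fold change over all genes was 0.02. The count depended on the age that GRZ was set against, with 2203 genes (11.8%) past the threshold against MZM-0410 at 5 wph, 2869 (15.4%) against 12 wph and 6340 (34.0%) against 39 wph. These comparisons share the 4 GRZ libraries. Depth also differed, with 3931420 to 8241819 counts per MZM-0410 library at 5 wph, against 8267607 to 8740860 at 39 wph. The part of depth in the order of these counts was not tested. Within MZM-0410, 4393 genes (23.6%) differed between ages.

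A far smaller set differed from every age. In the comparison with each age, which takes the largest of 3 p-values for genes with 1 direction, 362 genes (1.94%) passed, with 183 higher in GRZ (0.983%) and 179 lower (0.961%). Their median absolute log2 fold change was 0.88, and 155 of them differed more than 2-fold from the age mean. Of the 362 genes, 296 did not pass the test for a difference between MZM-0410 ages. For 846 genes (4.54%) the 4 GRZ libraries lay outside the whole range of the 12 MZM-0410 libraries, with 421 above (2.26%) and 425 below (2.28%). The set grew to 704 genes when GRZ replicate 4 was left out, of which 338 were among the 362, and it held 225 to 260 genes when another GRZ library was left out. No gene with at least 10 counts in every library of one strain was without counts in the other.

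Named genes higher in GRZ at every age had diverse functions. CDC42EP4 (Nfu_g_1_010557), an effector of the GTPase Cdc42 that shapes actin, had 39.0, 45.0, 40.8 and 36.9 CPM in GRZ, against a median of 14.8 CPM in MZM-0410 (lowest 13.1, highest 22.8). This was a log2 fold change of 1.33 ± 0.081 (SE; adjusted p = 4.24e-09), or 2.52-fold. Another CDC42EP4 copy, Nfu_g_1_019463, was not called against the age mean (adjusted p = 0.231 by edgeR). That copy had 28.5 to 32.8 CPM in GRZ, against 27.8 to 46.8 CPM in MZM-0410. GPR155 (Nfu_g_1_017661), a lysosomal membrane protein involved in cholesterol sensing, reached 45.9, 45.0, 42.3 and 48.1 CPM in GRZ, against 13.5 to 32.4 CPM in MZM-0410 with a median of 18.8 CPM (log2 fold change 1.16 ± 0.083, adjusted p = 3.43e-08). For CDC42EP4 (Nfu_g_1_010557) and GPR155 (Nfu_g_1_017661) the strains did not overlap, and within MZM-0410 the 12 wph group was the highest.

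GRIP1, a scaffold that anchors AMPA-type glutamate receptors, was among the most even of these genes. It had 207, 211, 195 and 196 CPM in GRZ, against a median of 137 CPM in MZM-0410 (126 to 151), a log2 fold change of 0.56 ± 0.041 (adjusted p = 4.28e-08). Its level was nearly flat over age in MZM-0410, at 141 ± 6.8, 133 ± 5.3 and 138 ± 4.1 CPM (SD, n = 4 each) at 5, 12 and 39 wph. HSPA6 (Nfu_g_1_005309), an HSP70-type chaperone, had 435, 466, 419 and 436 CPM in GRZ, against a median of 291 CPM in MZM-0410 (221 to 329; log2 fold change 0.65 ± 0.047, adjusted p = 4.28e-08). Another HSPA6 copy, Nfu_g_1_000519, held at most 4.07 CPM in GRZ and 6.08 CPM in MZM-0410 and was not called (adjusted p = 0.249 by edgeR). ATP1B1 (Nfu_g_1_022381), a beta subunit of the sodium pump, was 1.8-fold higher in GRZ (adjusted p = 1.14e-06). The more abundant ATP1B1 copy, Nfu_g_1_000774, was 1.25-fold higher (adjusted p = 0.0025 by edgeR), with 211 to 272 CPM in GRZ, against 157 to 264 CPM in MZM-0410. That copy overlapped between the strains and missed the comparison with each age. SARDH, which breaks down sarcosine in mitochondrial one-carbon metabolism, was 1.94-fold higher with 26.4 to 34.9 CPM in GRZ, against 12.7 to 19.5 CPM in MZM-0410.

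Of the proliferation genes, TPX2 and TOP2A were higher in GRZ than at each MZM-0410 age, whereas MKI67 was lower than at 5 wph (log2 fold change -0.87). Of 45 named cell cycle genes, 2 were called higher against each age and 0 lower by edgeR, and their median log2 fold change against 5 wph was -0.365. TPX2 also declined with age in MZM-0410 (adjusted p = 4.09e-07 by edgeR). TOP2A did not pass the test for a difference between MZM-0410 ages (adjusted p = 0.0632 by edgeR). TPX2, a spindle assembly factor, had 26.2, 24.4, 25.1 and 25.1 CPM in GRZ, and in MZM-0410 it averaged 16.2 ± 2.0, 7.57 ± 1.9 and 3.75 ± 0.37 CPM (SD, n = 4 each) at 5, 12 and 39 wph. The log2 fold change of GRZ was 0.63 against 5 wph, 1.73 against 12 wph and 2.74 against 39 wph (adjusted p for each age = 0.0133). TOP2A, the topoisomerase of dividing cells, had 132, 130, 134 and 146 CPM in GRZ, against 23.5 to 75.7 CPM in MZM-0410 (log2 fold change from the age mean 1.43 ± 0.17, adjusted p = 1.77e-05). GRZ lay above every MZM-0410 library for both genes. The comparison of TPX2 with each age was lost without MZM-0410 5 wph replicate 11 (adjusted p = 0.0547), without MZM-0410 5 wph replicate 14 or without GRZ replicate 1, and that of TOP2A without MZM-0410 5 wph replicate 11 (adjusted p = 0.0534) or replicate 12.

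The largest differences among named genes higher in GRZ belonged to MYO7A and a haemoglobin gene. MYO7A (Nfu_g_1_018585), an unconventional myosin best known from hair cells and retina, had 20.4, 18.4, 25.8 and 25.6 CPM in GRZ, against a median of 1.34 CPM in MZM-0410 (log2 fold change 3.49 ± 0.39, adjusted p = 8.91e-06). A single MZM-0410 library, 39 wph replicate 9, reached 12.5 CPM, while the other 11 held at most 2.08 CPM. HBG1 (Nfu_g_1_007603), a globin, had 6.5, 9.41, 3.50 and 9.94 CPM in GRZ, or 275 counts in all, against 36 counts in the 12 MZM-0410 libraries, where its highest level was 2.40 CPM at 5 wph. Its log2 fold change from the age mean was 4.76 ± 0.46, and its call against each age was lost without MZM-0410 5 wph replicate 15 (adjusted p = 0.0533). The more abundant HBG1 copy Nfu_g_1_007641 had 132 to 278 CPM in GRZ, against 16.8 to 243 CPM in MZM-0410 (log2 fold change 0.93, adjusted p = 0.0444 by edgeR). Copy Nfu_g_1_023228 had 0.0945 to 2.83 CPM in GRZ, against at most 1.56 CPM in MZM-0410 (log2 fold change 3.84, adjusted p = 0.00117 by edgeR). Both of these copies overlapped between the strains and missed the comparison with each age. VCAN (Nfu_g_1_019317), the matrix proteoglycan versican, was 3.22-fold higher in GRZ, with 8.60 to 11.8 CPM in GRZ, against 1.27 to 7.77 CPM in MZM-0410. Its call against each age held in 11 of the 16 fits that leave out a library (highest adjusted p = 0.0854, without MZM-0410 12 wph replicate 3). The more abundant VCAN copy, Nfu_g_1_010810, was not called against the age mean (adjusted p = 0.703 by edgeR). That copy had 63.4 to 109 CPM in GRZ, against 62.4 to 127 CPM in MZM-0410.

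Without a name, Nfu_g_1_004993 had 6.39, 7.19, 5.29 and 5.87 CPM in GRZ, against at most 0.637 CPM in MZM-0410, where all 12 libraries together held 11 counts. Nfu_g_1_011306 had 19.1, 20.2, 17.5 and 19.8 CPM in GRZ, against 10.3 CPM in MZM-0410 39 wph replicate 9 and at most 0.428 CPM in the other 11 MZM-0410 libraries. The one MZM-0410 library with a high level was the same as for MYO7A. The call of Nfu_g_1_011306 against each age was not firm, and was kept in 1 of the 16 fits that leave out a library (highest adjusted p = 0.105, without GRZ replicate 1).

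**Figure D1:**
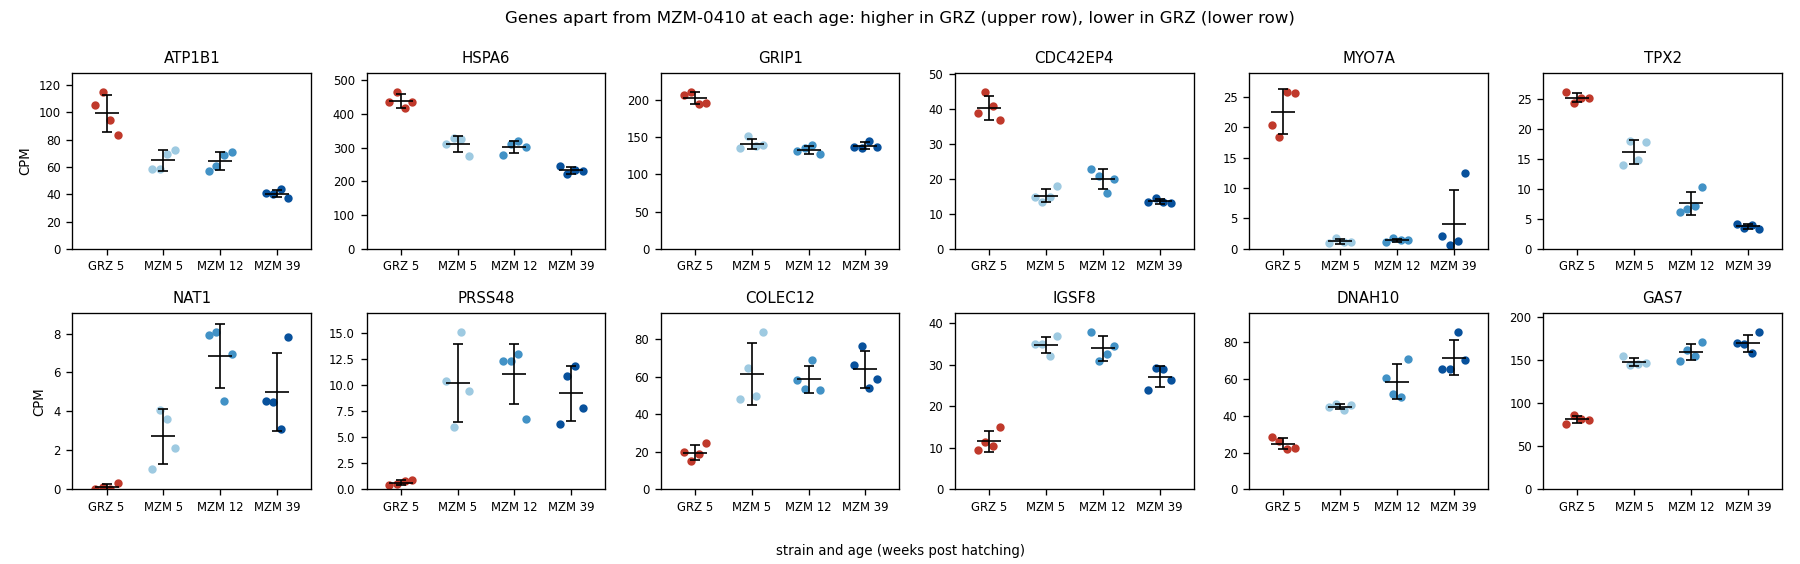
Levels (y axis, CPM) of 12 genes that passed the comparison with each age, for GRZ at 5 wph and MZM-0410 at 5, 12 and 39 wph (x axis; MZM stands for MZM-0410). Points are libraries (n = 4 per group), bars the mean and SD. In the upper row every GRZ library lies above all MZM-0410 libraries, and in the lower row below them, and the MZM-0410 39 wph library at 12.5 CPM for MYO7A stands away from its group.

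Among named genes lower in GRZ at every age, the strongest were close to absent. NAT1, an arylamine N-acetyltransferase of xenobiotic metabolism, had 0, 0.101, 0 and 0.339 CPM in GRZ, which is 4 counts in all, against 436 counts in MZM-0410 with a median of 4.49 CPM (1.02 to 8.06). The log2 fold change of NAT1 was -5.25 ± 0.55 (adjusted p = 4e-06). PRSS48 (Nfu_g_1_017344), a serine protease, had 0.456 to 0.904 CPM in GRZ, against 6.0 to 15.1 CPM in MZM-0410 (log2 fold change -3.91 ± 0.33, adjusted p = 2.64e-07). Both genes were low in all 4 GRZ libraries and present in all 12 MZM-0410 libraries. The unnamed Nfu_g_1_017550 was the clearest case, with 0.0945 to 0.304 CPM in GRZ, against 22.8 to 30.5 CPM in MZM-0410 (log2 fold change -6.97 ± 0.18, adjusted p = 1.35e-14). Nfu_g_1_014076 had a single count in the 4 GRZ libraries, against 481 counts in MZM-0410, a ratio of 217 in favour of MZM-0410 with a 95% exact interval of 38.8 to 8600 that covers counting error only.

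COLEC12, a scavenger receptor of the collectin family, had 19.7, 15, 19.1 and 24.6 CPM in GRZ, against a median of 58.5 CPM in MZM-0410 (47.9 to 83.7), and was 3.14-fold lower (adjusted p = 8.43e-07). IGSF8, an immunoglobulin-domain partner of tetraspanins, had 9.36, 11.5, 10.4 and 15.1 CPM in GRZ, against a median of 32.4 CPM in MZM-0410 (23.8 to 37.8), and was 2.73-fold lower (adjusted p = 4.28e-08). DNAH10, a dynein heavy chain of motile cilia, had 28.2, 26.3, 22.1 and 22.3 CPM in GRZ, and averaged 44.9, 58.6 and 71.7 CPM in MZM-0410 at 5, 12 and 39 wph. The distance of DNAH10 from GRZ thus grew with MZM-0410 age, with log2 fold changes of -0.86, -1.24 and -1.54. GAS7 (Nfu_g_1_021982), which links membranes to actin in neurites, had 76.0 to 86.3 CPM in GRZ, against 144 to 182 CPM in MZM-0410 (log2 fold change -0.97 ± 0.051, adjusted p = 8.19e-10).

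Several genes of neuronal signalling and turnover belonged to the same set. NTSR1, a neurotensin receptor, was 2.89-fold lower, with 2.74 to 4.66 CPM in GRZ, against 5.67 to 17.5 CPM in MZM-0410. Its call held in 10 of the 16 fits that leave out a library (highest adjusted p = 0.0929, without GRZ replicate 1). UBE3A (Nfu_g_1_003582), the ubiquitin ligase of Angelman syndrome, had 15.5 to 22.3 CPM in GRZ, against 26.7 to 36.1 CPM in MZM-0410. The more abundant UBE3A copy, Nfu_g_1_022432, was not called against the age mean (log2 fold change 0.14, adjusted p = 0.116 by edgeR). That copy had 71.2 to 92.6 CPM in GRZ, against 67.1 to 90.7 CPM in MZM-0410. WIPI1, an early autophagosome protein, had 17.1, 18.0, 18.8 and 20.7 CPM in GRZ, against 27.8, 27.2 and 27.1 CPM on average in MZM-0410 at 5, 12 and 39 wph, so that its distance from GRZ was similar at each age (-0.57, -0.55 and -0.54 on the log2 scale). DLGAP1 (Nfu_g_1_021350), a postsynaptic scaffold, was 1.41-fold lower, and the N-type calcium channel subunit CACNA1B (Nfu_g_1_024097) 1.26-fold lower, at 135 to 152 CPM in GRZ, against 168 to 195 CPM in MZM-0410.

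For several of these genes the killifish table holds another copy under the same human symbol, and copies could move alike or apart. Of 628 symbols with 2 or more tested genes, 34 had a gene past the comparison with each age, and for 1 of them, COL6A2, all copies passed. Of the 34 symbols, 10 had another copy past the comparison with the age mean in the same direction and 5 had one in the opposite direction. CACNA1B was of the first kind, with a second copy (Nfu_g_1_014529) at a log2 fold change of -0.31 (adjusted p = 0.000989), as was GAS7, whose second copy (Nfu_g_1_019124) had -0.35 (adjusted p = 0.0043).

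The copies of COL6A2, a chain of the collagen VI microfibrils, moved in opposite directions. Copy Nfu_g_1_017821 fell to 4.79, 5.77, 7.0 and 7.0 CPM in GRZ, against a median of 18.3 CPM in MZM-0410 (11.3 to 25.4). Copy Nfu_g_1_020270 rose to 17.7, 21.3, 10.8 and 18.5 CPM in GRZ, against a median of 8.26 CPM in MZM-0410 (6.84 to 11.1). Their log2 fold changes were -1.55 ± 0.16 and 0.99 ± 0.15, and the lowest GRZ library of the second copy lay within the MZM-0410 range. The call of the second copy against each age held in 12 of the 16 fits that leave out a library (highest adjusted p = 0.0811, without GRZ replicate 2). COL6A1 (Nfu_g_1_020233), the partner chain, was 1.81-fold higher, with 22.4 to 26.3 CPM in GRZ, against 9.12 to 17.3 CPM in MZM-0410.

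The second copy of GPR155 was not higher in GRZ. GPR155 copy Nfu_g_1_002953 had 58.0 to 77.4 CPM in GRZ, against 64.2 to 84.6 CPM in MZM-0410. Its log2 fold change was -0.24 (adjusted p = 0.0159), a call lost without GRZ replicate 1 (adjusted p = 0.0574), replicate 2 (0.0793) or replicate 3 (0.0571). Counting reads without regard to strand, and reads shared between similar copies, limit how exactly a single copy is measured. Whether reads of MZM-0410 align to the reference as well as those of GRZ was not tested.

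**Figure D2:**
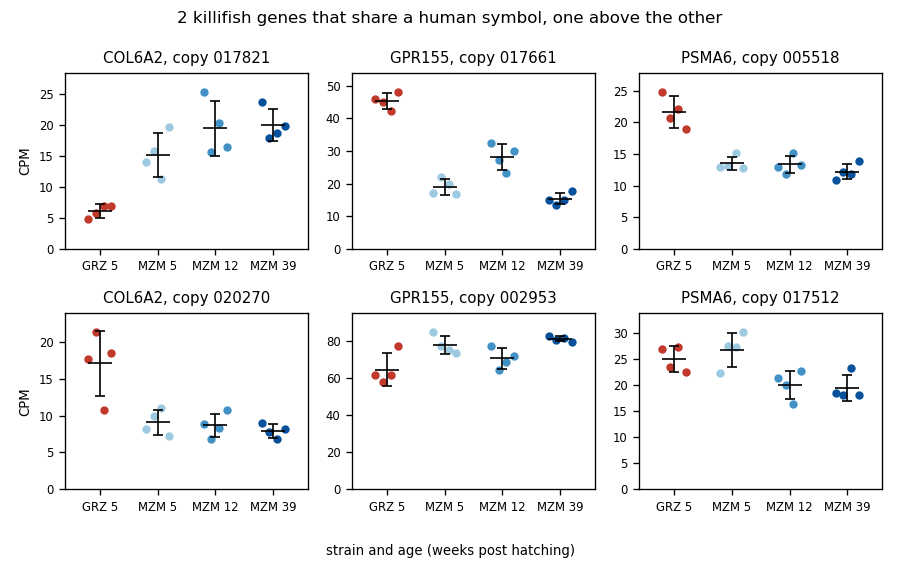
Levels (y axis, CPM) of 3 pairs of killifish genes that share a human symbol, one copy above the other, in GRZ at 5 wph and MZM-0410 at 5, 12 and 39 wph (x axis). Points are libraries (n = 4 per group), bars the mean and SD. The upper copy of each pair has GRZ outside the MZM-0410 range, and the lower copies overlap with it.

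Gene groups were described by counts over their named members. Named genes passed more often than others, with 19.8% of 5365 named genes higher and 11.3% lower against the age mean, and the counts below are read against these shares. Chaperones stood highest among the larger groups. Of 43 named chaperone genes, 28 were higher in GRZ and 1 lower, with a median log2 fold change of 0.31, against 0.02 over all genes. The median was 0.22 against 5 wph, 0.21 against 12 wph and 0.51 against 39 wph. Without the 39 wph group 14 were higher and 2 lower, and leaving out single libraries gave 20 to 30 higher.

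The chaperonin CCT, a ring of subunits that folds actin and tubulin, gave 8 of the 28 chaperone genes higher in GRZ: TCP1, CCT2, CCT3, CCT4, CCT5, CCT6A, CCT7 and CCT8. TCP1 had 158, 154, 156 and 150 CPM in GRZ, against a median of 121 CPM in MZM-0410 (102 to 135; log2 fold change 0.38 ± 0.046, adjusted p = 1.88e-05). CCT8 had 177, 182, 175 and 178 CPM in GRZ, against a median of 134 CPM in MZM-0410 (117 to 156), and its log2 fold change was 0.22 against 5 wph, 0.37 against 12 wph and 0.58 against 39 wph. GRZ lay above all MZM-0410 libraries for both subunits. Their calls against each age were not firm, with TCP1 kept in 10 of the 16 fits that leave out a library (highest adjusted p = 0.0973, without MZM-0410 5 wph replicate 15) and CCT8 in 4 of them (highest adjusted p = 0.137, without MZM-0410 5 wph replicate 12). The other direction was taken by DNAJC6, the auxilin that uncoats clathrin vesicles.

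Lipid synthesis was a second such group. Of 17 named genes of cholesterol and fatty acid synthesis, 11 were higher in GRZ and 0 lower by edgeR (1 lower at an unadjusted p under 0.05, and 0 by DESeq2), with a median log2 fold change of 0.49. The higher count was 7 without GRZ replicate 1 and 6 without GRZ replicate 2. SREBF1, the transcription factor that switches on fatty acid synthesis, had 224, 252, 171 and 174 CPM in GRZ, against a median of 135 CPM in MZM-0410 (99.1 to 167; log2 fold change 0.63 ± 0.088, adjusted p = 8.35e-05). ACLY (Nfu_g_1_012075), which makes cytosolic acetyl-CoA, had 123, 115, 126 and 112 CPM in GRZ, and averaged 93.0, 88.1 and 52.9 CPM in MZM-0410 at 5, 12 and 39 wph. FASN, the fatty acid synthase, had 393, 390, 353 and 262 CPM in GRZ, against 220 to 298 CPM in MZM-0410 (adjusted p = 0.00029), so that replicate 4 lay within the MZM-0410 range. SREBF1 differed most from the youngest MZM-0410 fish (0.93 on the log2 scale) and ACLY most from the oldest (1.17). The calls of SREBF1 and ACLY against each age were kept in 4 of 16 fits that leave out a library each (highest adjusted p = 0.169, without GRZ replicate 2, and 0.139, without GRZ replicate 3). Without the 39 wph group, 3 genes of the list were higher and 1 lower.

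Of 46 named genes of the extracellular matrix, 20 were higher and 3 lower (median log2 fold change 0.19). COL4A2, a chain of the vascular basement membrane, had 101, 157, 81.6 and 134 CPM in GRZ, against a median of 71.5 CPM in MZM-0410 (52.3 to 80.3), and was 1.75-fold higher (adjusted p = 7.16e-05). GRZ replicates 2 and 4 were the highest, and its call against each age was lost without GRZ replicate 2 (adjusted p = 0.069), MZM-0410 12 wph replicate 3 or MZM-0410 12 wph replicate 5. Of 22 markers of endothelium and pericytes, 8 were higher and 1 lower, with 4 higher without GRZ replicate 2 and 3 higher without the 5 wph group. Their summed level was 1470 to 1750 CPM in GRZ, against 1330 to 1620 CPM in MZM-0410. Without the 39 wph group, 10 matrix genes were higher and 3 lower. Fewer cells of a type and less RNA per cell cannot be told apart in these bulk brain libraries.

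Single members of other pathways were also apart from every age. PFKL (Nfu_g_1_017684), phosphofructokinase of glycolysis, had 79.3, 69.9, 75.3 and 81.8 CPM in GRZ, against 53.3 to 62.5 CPM in MZM-0410 (log2 fold change 0.42 ± 0.053, adjusted p = 3.27e-05). ACSL1 (Nfu_g_1_018214), which activates long-chain fatty acids, was 1.47-fold higher, with 94.5 to 108 CPM in GRZ, against 58.0 to 84.2 CPM in MZM-0410. PIK3R1 (Nfu_g_1_017101), the regulatory subunit of PI3 kinase, was 1.29-fold higher. PSMA6 (Nfu_g_1_005518), an alpha subunit of the 20S proteasome, was 1.67-fold higher, while its copy Nfu_g_1_017512 had 22.5 to 27.4 CPM in GRZ, against 16.4 to 30.2 CPM in MZM-0410 (adjusted p = 0.143). Of these genes, the 4 called against each age kept that call in all 16 fits that leave out a library.

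**Figure D3:**
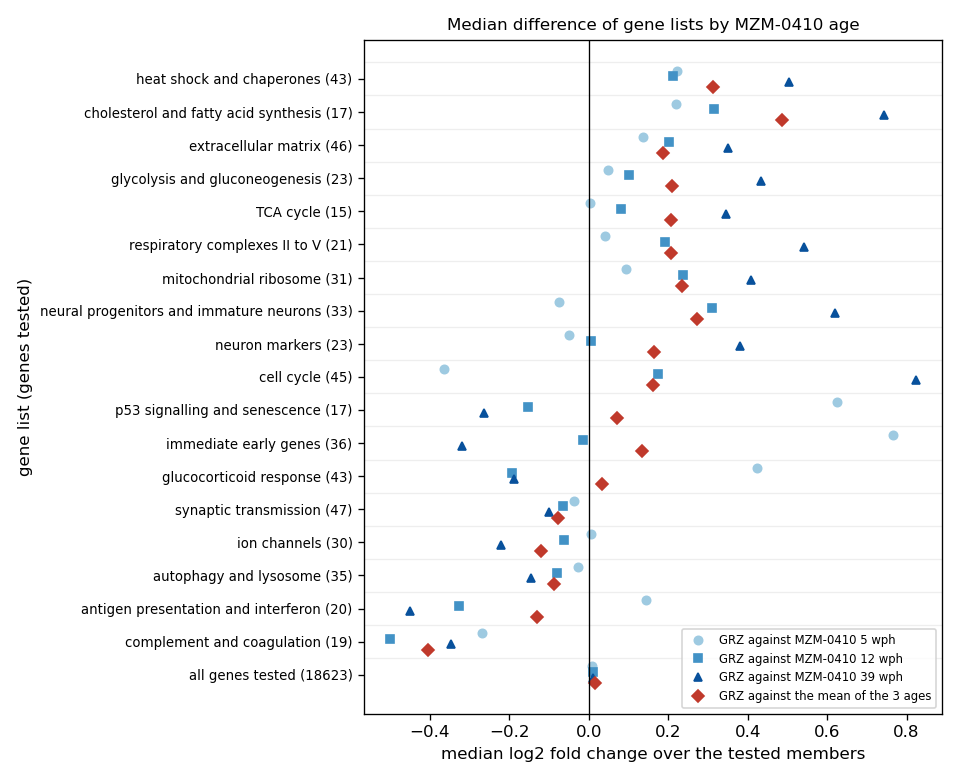
Median log2 fold change of GRZ (x axis) over the named members of 18 gene lists and over all genes tested (y axis, number of genes in brackets), against MZM-0410 at 5, 12 and 39 wph and against the mean of the 3 ages. The chaperone and lipid synthesis medians lie above 0 at each age, and those of the cell cycle (-0.37 against 5 wph, 0.82 against 39 wph) and of immediate early genes (0.77 and -0.32) lie on both sides.

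For another set of groups the difference from the age mean was carried by one age. Neuron markers had 11 of 23 genes higher and 4 lower, but the median log2 fold change was -0.05 against 5 wph, 0.00 against 12 wph and 0.38 against 39 wph, and without the 39 wph group 2 were higher and 4 lower. The higher count was 7 without GRZ replicate 3. NEFL (Nfu_g_1_006470), the neurofilament light chain, had 116, 96.3, 97.5 and 87.9 CPM in GRZ, and averaged 83.2, 66.3 and 28.4 CPM in MZM-0410 at 5, 12 and 39 wph. Its log2 fold change of 0.88 ± 0.094 from the age mean (adjusted p = 4.89e-06) thus averaged 0.26, 0.58 and 1.8, and GRZ overlapped with MZM-0410 of its own age. Genes of the respiratory complexes II to V, with 11 of 21 higher, and of the TCA cycle, with 8 of 15 higher, showed the same order of medians, at 0.04 and 0.00 against 5 wph and at 0.54 and 0.35 against 39 wph. Without the 39 wph group 2 genes of the complexes and 0 of the TCA cycle were higher by edgeR.

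Genes of neural progenitors and immature neurons had 16 of 33 members higher and 1 lower, with median log2 fold changes of -0.07, 0.31 and 0.62 against 5, 12 and 39 wph. The counts were 8 higher and 2 lower without the 39 wph group. IGF2BP3, an RNA-binding protein of embryonic and progenitor cells, had 22.7, 23.0, 21.0 and 23.3 CPM in GRZ, and averaged 17.3 ± 1.9, 7.87 ± 1.0 and 3.48 ± 0.69 CPM (SD, n = 4 each) in MZM-0410 at 5, 12 and 39 wph. Its log2 fold change was 1.52 ± 0.095 from the age mean (adjusted p = 6.71e-09) and 0.37 from 5 wph (adjusted p = 0.0545), so it missed the comparison with each age. SOX11 (Nfu_g_1_015127), a transcription factor of newborn neurons, had 51.9 to 58.1 CPM in GRZ, against an average of 54.5 CPM in MZM-0410 at 5 wph, 32.4 CPM at 12 wph and 21.9 CPM at 39 wph. The GRZ level of SOX11 was that of MZM-0410 at the same age, with a log2 fold change of 0.01, whereas the GRZ libraries of IGF2BP3 lay above the MZM-0410 range at 5 wph as well (15.1 to 19.4 CPM). LHX5, a homeobox gene of the developing forebrain, followed the same order (0.22, 0.57 and 0.88 on the log2 scale). In the opposite direction ENPP6, a marker of newly forming oligodendrocytes, had 19 to 25 CPM in GRZ, against averages of 29.4, 45.6 and 58.2 CPM in MZM-0410 at 5, 12 and 39 wph (log2 fold change -0.99 ± 0.12, adjusted p = 2.05e-05), and the ubiquitin protease family member USP54 had 221 to 245 CPM in GRZ, against 246 to 423 CPM in MZM-0410.

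Some groups had opposite differences at different ages, which the comparison with the age mean does not show. The median log2 fold change of 45 cell cycle genes was -0.37 against 5 wph and 0.82 against 39 wph, and against the age mean 14 were higher and 1 lower. Without the 39 wph group 2 were higher and 6 lower, and 6 were higher without GRZ replicate 1 and 7 without GRZ replicate 3. MKI67, the proliferation antigen, had 36.1, 25.1, 32.8 and 31.3 CPM in GRZ, and 52.2 to 62.3 CPM at 5 wph, 21.5 to 26.7 CPM at 12 wph and 6.71 to 14 CPM at 39 wph in MZM-0410. Its log2 fold change was -0.87 against 5 wph, 0.37 against 12 wph and 1.49 against 39 wph, and 0.33 against the age mean (adjusted p = 0.0537). KIF11, a spindle motor, followed the same order (-0.33, 0.97 and 1.91). Unlike MKI67, the proliferation genes TPX2 and TOP2A were above MZM-0410 at 5 wph.

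Immediate early genes, which neurons switch on within minutes of activity, showed the reverse order, with medians of 0.77 against 5 wph, -0.02 against 12 wph and -0.32 against 39 wph. FOSB had 77.2, 67.1, 65.1 and 75.7 CPM in GRZ, against 10.8 to 19.1 CPM in MZM-0410 at 5 wph, 58.4 to 91.7 CPM at 12 wph and 68.1 to 94.1 CPM at 39 wph. GRZ thus lay 2.41 above MZM-0410 of the same age on the log2 scale and within the range of the older fish. NPAS4, another activity-regulated transcription factor, followed (1.22, 0.45 and -0.12). Against the age mean 5 of 36 genes were higher and 0 lower by edgeR (2 lower at an unadjusted p under 0.05, and 0 by DESeq2). The higher share of 13.9% was below the 19.8% of all named genes. The higher count was 8 without MZM-0410 39 wph replicate 10 and 3 without GRZ replicate 3. Without the 5 wph group 0 were higher and 12 lower, and without the 39 wph group 15 were higher and 0 lower.

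Clock genes differed by copy and by age. NR1D2, which encodes the repressor REV-ERB beta, has 3 tested copies, among them Nfu_g_1_020882 with 43.6, 43.3, 43.3 and 62.8 CPM in GRZ, against averages of 12.4, 33.3 and 48.6 CPM in MZM-0410 at 5, 12 and 39 wph. The copy Nfu_g_1_010257 had 5.36 to 9.83 CPM in GRZ, against averages of 10.4, 12.3 and 20.3 CPM. The third, Nfu_g_1_010960, had 167 to 196 CPM in GRZ, against 83.9 to 119 CPM in MZM-0410 at 5 wph, and was higher than the age mean (log2 fold change 0.45, adjusted p = 0.000458). Of the other two, Nfu_g_1_020882 was higher (log2 fold change 0.83, adjusted p = 0.000399; 0.25 and adjusted p = 0.219 without the 5 wph group) and Nfu_g_1_010257 lower (-0.83, adjusted p = 0.000196). CIART, a repressor of the clock, had 29.4 to 35.9 CPM in GRZ, close to 32.2 CPM in MZM-0410 at 5 wph, against 16.7 CPM at 12 wph and 14.5 CPM at 39 wph. Over the list, 5 of 26 genes were higher (19.2%) and 6 lower (23.1%), against 19.8% and 11.3% of all named genes. The higher share was thus near that of all named genes. The lower count was 9 without GRZ replicate 4, 2 without GRZ replicate 1 and 3 without GRZ replicate 2 or 3.

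**Figure D4:**
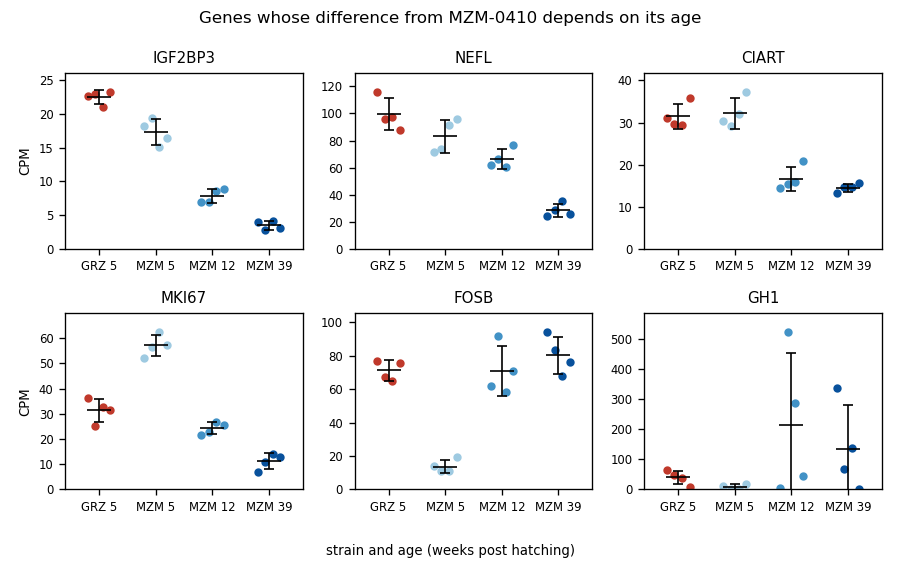
Levels (y axis, CPM) of 6 genes whose difference from MZM-0410 changed with its age, in GRZ at 5 wph and MZM-0410 at 5, 12 and 39 wph (x axis). Points are libraries (n = 4 per group), bars the mean and SD, cut at 0. IGF2BP3, NEFL and CIART fall with age in MZM-0410, MKI67 crosses the GRZ level between 5 and 12 wph, and FOSB is low in the MZM-0410 5 wph libraries alone. GH1 varies widely between single libraries and did not pass against any MZM-0410 age (adjusted p = 0.279, 0.116 and 0.188 by edgeR at 5, 12 and 39 wph).

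Groups with more genes lower than higher in GRZ included those of ion channels, synapses, complement and autophagy. Antigen presentation had 3 of 20 genes lower, and 0 higher by edgeR, at an unadjusted p under 0.05 or by DESeq2. DNA repair had 2 of 13 lower. The lower shares of these 2 groups, 15% and 15.4%, were near the 11.3% of all named genes. Medians of DNA repair were -0.19, 0.11 and 0.04 against 5, 12 and 39 wph. Ion channels had 12 of 30 genes lower and 3 higher against the age mean, and 9 lower and 1 higher without the 39 wph group. CACNB4, a calcium channel beta subunit, had 102 to 123 CPM in GRZ, against 127 to 205 CPM in MZM-0410 (log2 fold change -0.53 ± 0.088, adjusted p = 0.00038), and CACNA2D2, an auxiliary subunit, 345 to 367 CPM in GRZ, against 379 to 435 CPM in MZM-0410. Like CACNA1B (Nfu_g_1_024097), both subunits were below the whole MZM-0410 range, by small factors. Unlike CACNA1B, CACNB4 and CACNA2D2 missed the comparison with each age (adjusted p = 0.0643 and 0.0809 by edgeR). Genes of synaptic transmission had 10 of 47 lower and 2 higher, and 8 lower and 0 higher by edgeR without the 39 wph group. The lower count was 13 without GRZ replicate 4 and 4 with the ages pooled.

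Complement and coagulation genes had 5 of 19 members lower and 0 higher by edgeR (1 higher at an unadjusted p under 0.05, and 0 by DESeq2), with a median log2 fold change of -0.41. C4B, a complement factor that tags synapses and debris, had 25.6, 12.4, 7.94 and 15.7 CPM in GRZ, against averages of 27.2, 36.3 and 64.4 CPM in MZM-0410 at 5, 12 and 39 wph. The log2 fold change of C4B was -1.39 ± 0.27 (adjusted p = 0.00154) and -0.84 against 5 wph, where the strains overlapped. F3, tissue factor, was lower than at each age, with 14.6 to 19.6 CPM in GRZ, against 22.1 to 33.7 CPM in MZM-0410. Its call against each age was lost without MZM-0410 5 wph replicate 15 (adjusted p = 0.0811) or GRZ replicate 2. Innate immunity and cytokine genes had 4 of 14 members higher and 3 lower, and their member TLR5, the flagellin receptor, was 2.20-fold lower, at 4.34 to 8.10 CPM in GRZ, against 7.86 to 21.9 CPM in MZM-0410. Of the 6 microglia and macrophage markers, edgeR called 0 in either direction, with 1 lower at an unadjusted p under 0.05, and DESeq2 called 1 lower (CD68 had a log2 fold change of -0.45, adjusted p = 0.0676 by edgeR). Their summed level was 192 to 224 CPM in GRZ, against 173 to 292 CPM in MZM-0410.

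Autophagy and lysosome genes had 8 of 35 members lower and 3 higher. ATG7, which activates the ubiquitin-like proteins of autophagy, had 31.5, 30.5, 31.7 and 39.3 CPM in GRZ, against a median of 47.3 CPM in MZM-0410 (37.0 to 54.6; log2 fold change -0.47 ± 0.071, adjusted p = 0.000193). The highest GRZ value was that of replicate 4, and without this library 15 genes of the list were lower, against 5 without GRZ replicate 1 or 2. Without the 39 wph group 3 were lower and 2 higher.

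Some transcripts of muscle, a tissue next to the brain, differed between MZM-0410 ages. Of 7 muscle genes 3 were higher in GRZ and 1 lower, and without the 39 wph group 0 were higher by edgeR and 1 lower. MYLPF, a myosin light chain of fast muscle, was 5.51-fold higher (adjusted p = 0.00101; 0.136 without the 39 wph group), with 81.1 to 141 CPM in GRZ, against 16.5 to 94.5 CPM at 5 wph, 3.15 to 84.3 CPM at 12 wph and 1.85 to 4.08 CPM at 39 wph in MZM-0410. The troponin TNNI2 was 3.08-fold higher (adjusted p = 0.0103; 0.7 without the 39 wph group), with 11.4 to 21.7 CPM in GRZ, against averages of 17.2, 11 and 0.855 CPM in MZM-0410 at 5, 12 and 39 wph. The growth hormone gene GH1 varied between single libraries, from 9.38 to 63.2 CPM in GRZ, against 0.212 to 522 CPM in MZM-0410 (adjusted p = 0.691). The summed level of 7 muscle genes was 257 to 361 CPM in GRZ, against 160 to 328 CPM in MZM-0410, and that of 6 erythrocyte genes 252 to 434 CPM in GRZ, against 108 to 368 CPM in MZM-0410. The glial markers GFAP, at 319 to 653 CPM in GRZ, against 338 to 686 CPM in MZM-0410 (adjusted p = 0.823), and MBP (Nfu_g_1_012286; adjusted p = 0.26) were not called. The part of adjoining tissue in the difference of MYO7A and HBG1 was not tested.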

How the data were processed

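The files hold raw read counts per gene in 16 columns, 1 per brain library, as the authors deposited them. RNA was taken from brain protein lysates and depleted of ribosomal RNA in a strand-marking library kit. The submitters' processing notes name bcl2fastq (version 1.8.4), TopHat2 (version 2.1.0) and featureCounts (version 1.5.0). In the study's methods, TopHat2 aligned reads to the killifish genome and featureCounts ignored strand, so overlapping genes on opposite strands were not separated. Samples were grouped by the strain and age in their titles. Counts were fitted in edgeR 4.0.16 (R 4.3.3) with 4 group means after filterByExpr (minimum count 10) and TMM scaling, and tested with the quasi-likelihood F test, two-sided, with Benjamini-Hochberg adjustment over all 18623 genes. The comparison with each age took the largest of 3 p-values for genes with 1 sign. Levels are TMM-scaled CPM computed from the deposited counts. Replicate numbers shared by GRZ and MZM-0410 at 12 wph did not pair the libraries.

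Names came from identifier pairs in the supplementary tables, which named 5369 genes (20.1%), and a name was held by 36.2% of genes past the threshold against the age mean and by 26.4% of the rest. None of the identifiers matched the reference gene table, so no coordinates are given. Members and the 48 gene lists were chosen with earlier results of these data known. Named genes were those with the smallest p or largest fold change that passed both comparisons without overlap, up to 4 per list, and fixed examples. Second copies, the other CCT subunits, DNAJC6 and other list members beyond rank 4 were named after their values were seen. In simulated counts with 200 changed genes, the comparison with the age mean recovered 62.7% of 1.5-fold, 85.1% of 2-fold and 98.5% of 4-fold changes over 18387 genes. Alternatives were RLE scaling, no filter, thinning, leaving out libraries or age groups, pooled ages, limma-voom 3.58.1 with and without a replicate block, and DESeq2 1.42.0. Some genes are not reported here.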

Additional observations from a re-analysis of the deposited data

Results flagged for a closer look

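Of 140 groups of 4 libraries looked at for 35 genes, 9 held a library far from the other 3 of its group, and chance alone flags about 1 in 20 groups. In MZM-0410 39 wph replicate 9, MYO7A stood at 12.5 CPM, with 2.08 CPM as the nearest of its group, and Nfu_g_1_011306 at 10.3 CPM, with 0.121 CPM as the nearest. Smaller gaps were those of PRSS48 (6.80 CPM in MZM-0410 12 wph replicate 5), GAS7 (154 CPM in MZM-0410 5 wph replicate 11), MYO7A (1.8 CPM in MZM-0410 5 wph replicate 12), GRIP1 (145 CPM in MZM-0410 39 wph replicate 8) and ACLY (103 CPM in MZM-0410 5 wph replicate 12). Nfu_g_1_014076 had 0.114 CPM in GRZ replicate 1 and 0 in the other GRZ libraries, and Nfu_g_1_004993 had 0 CPM in MZM-0410 39 wph replicate 6, with 0.116 CPM as the nearest of its group.

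MKI67 differed in opposite directions from 2 MZM-0410 ages, with a log2 fold change of GRZ of -0.87 against 5 wph and 1.49 against 39 wph, and its MZM-0410 level differed between ages (adjusted p = 2.13e-07, edgeR quasi-likelihood test). Over all genes, 53 were higher than at 5 wph and lower than at 39 wph and 46 the reverse, each past the threshold at both ages, and 5 of these 99 passed against the age mean.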

How the results depend on the processing

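The counts against the age mean stayed within 1.5 times of 2584 higher and 2021 lower under RLE scaling, no filter, limma-voom and DESeq2. Thinning to the smallest library left 1388 higher and 1237 lower, leaving out the 39 wph group 1303 and 1318, and pooling the ages as 1 group 1330 and 1297. Against each age, thinning left 76 higher and 103 lower of 183 and 179, and DESeq2 called 281 lower. Leaving out 1 library gave 1646 to 2791 higher and 1417 to 2445 lower against the mean, and 104 to 343 higher and 121 to 361 lower against each age, where the highest counts came without GRZ replicate 4. The lowest count higher against each age came without GRZ replicate 1 (104), followed by GRZ replicate 2 (107) and MZM-0410 5 wph replicate 12 (120). GRZ and MZM-0410 at 12 wph share the replicate numbers 1, 3 and 4, whose deviations correlated at -0.101, 0.00235 and 0.0369. With the number as a replicate block, limma-voom called 2675 higher and 2070 lower against the mean (2714 and 2105 without the block), and 188 and 161 against each age (192 and 165). Of 130 genes followed, 96 kept their direction and side of the threshold in every alternative, 21 calls were lost without the 39 wph group, 5 without the 5 wph group and 28 with pooled ages. FOSB changed sign without the 5 wph group (log2 fold change -0.10). Of 48 genes past the comparison with each age, 27 kept that call whichever library was left out. Depth limits the comparison with each age, in which 3 MZM-0410 libraries at 5 wph held at most 4629564 counts.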

Other observations

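Splicing and RNA processing genes had 22 of 66 named members higher in GRZ and 6 lower against the mean of the 3 MZM-0410 ages, and 7 higher and 4 lower without the 39 wph group. The higher count was 11 without GRZ replicate 1 or replicate 3. Of 7 genes of the monoamine and acetylcholine systems, 4 were higher, with medians of 0.14 against 5 wph and 0.73 against 39 wph. TPH2, which makes serotonin in raphe neurons, had 3.31 to 5.25 CPM in GRZ, against averages of 2.75, 1.95 and 0.824 CPM in MZM-0410 at 5, 12 and 39 wph. CHAT (Nfu_g_1_002978), which makes acetylcholine, had 26.1 to 28.4 CPM in GRZ, against 26.4, 21.6 and 11.5 CPM. Both genes were thus closest to GRZ in MZM-0410 of the same age. Glucocorticoid response genes had 10 of 43 members higher (23.3%) and 7 lower (16.3%), near the 19.8% and 11.3% of all named genes. Their medians were 0.42 against 5 wph and -0.19 against 12 and 39 wph. The lower count was 12 without GRZ replicate 4 and 4 without GRZ replicate 1 or 2, and the higher count 6 without GRZ replicate 2. DDIT4, an inhibitor of mTOR that stress hormones induce, had 103, 138, 79.4 and 80.1 CPM in GRZ, against averages of 40.1, 64.6 and 66.7 CPM in MZM-0410 (log2 fold change 0.85 ± 0.13, adjusted p = 0.000207). NR3C2, another member of the list, went the other way, with 67.5 to 105 CPM in GRZ, against 98.4 to 165 CPM in MZM-0410 (log2 fold change -0.55 ± 0.090, adjusted p = 0.000341 by edgeR).

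Few DNA repair genes were called, with 0 of 13 higher by edgeR, at an unadjusted p under 0.05 or by DESeq2. Those lower were 2 (15.4%, against 11.3% of all named genes). The damage kinase ATM had 43.9 to 49.3 CPM in GRZ, against 51.0 to 74.6 CPM in MZM-0410, and the end-joining factor XRCC4 had 8.40 to 11 CPM in GRZ, against 11.1 to 14.3 CPM in MZM-0410, so that neither overlapped. NHP2, a protein of telomerase and of small nucleolar particles, had 6.33 to 9.70 CPM in GRZ, against 4.04 to 5.96 CPM in MZM-0410 (log2 fold change 0.67 ± 0.12, adjusted p = 0.000945).

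MZM-0410 39 wph replicate 9 was closer to GRZ than to the other MZM-0410 libraries at 11 of 146 genes more than 4-fold apart, a count that ran from 7 to 28 over the 12 MZM-0410 libraries. For MYO7A its 12.5 CPM compared with a mean of 22.6 CPM in GRZ and at most 2.08 CPM in the other MZM-0410 libraries. For Nfu_g_1_011306 its 10.3 CPM compared with a mean of 19.1 CPM in GRZ and at most 0.428 CPM.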
